A study of Bos taurus with 12 samples.

Results

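Among the regions of the bovine genome that MBD-seq enriched in longissimus muscle of Angus cattle, a small set was both sharply bounded and present everywhere: 327 narrow regions with a peak in every one of the 12 libraries. They were found by joining the peaks of the 12 single-library lists that shared 1 bp or more on chromosomes 1 to 29, which gave 74459 regions. A joined region was kept when all 12 libraries had a peak in it, when it was narrower than 1000 bp and when each of its peaks had a pileup under 100, the pileup being the number of tags, extended to the fragment length, that cover the summit of a peak. Width, pileup and presence in all libraries therefore chose these regions, and widths and pileups are described without a test except where a pileup scale stands beside the fold enrichment in the fit over single regions. Because presence was required everywhere, no narrow region could be absent from one kind of beef or from one methylation level, and what could vary was its strength.

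The muscle, named longissimus dorsi in the sample labels and longissimus lumborum in the study's methods, came from steers of about 12 months of age that shared one diet, and no animal carried a transgene or received a treatment. Tender animals had the lowest and tough animals the highest Warner-Bratzler shear force after ageing of the meat, and 2 animals of each kind, drawn at random from those selected, were used. DNA of each was captured with the MethylCap protein and eluted serially into high, medium and low methylated fractions, which gave HTE and HTO (high, tender and tough), MTE and MTO (medium) and LTE and LTO (low), with 2 replicates each. The libraries are identified by methylation level, because the methods and the supplementary notes of the study pair the salt concentrations with the levels in opposite ways. Muscle tissue also holds fat, vessel and connective tissue cells, and a difference in cell makeup cannot be told apart from a difference in methylation.

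DNA methylation in mammals sits mostly on the cytosine of CG dinucleotides. A methyl-CpG binding domain holds a fragment more tightly the more methylated CG sites the fragment carries, so serial elution sorts fragments by the number and density of methylated sites and not by the share of cells that are methylated. A region that is pulled down in all fractions releases fragments over the whole elution range. Bovine autosomes are acrocentric, with the centromere near one end, and the tandem satellite repeats there are rich in CG sites in many mammals.

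Regions called in all 12 libraries were a minority of all regions, and narrow ones with low pileups a minority of those. Of the 74459 joined regions, 33559 (45.1%) had a peak in only 1 library and 3174 (4.26%) in all 12. Narrow regions with every pileup under 100 made up 99.04% of the regions seen in 1 library, 92.2% of those seen in 6, 41.3% of those seen in 11 and 10.3% of those seen in 12. The other regions called in all 12 libraries were 2815 with at least 1 pileup of 100 or more, called high-pileup regions here, and 32 that were 1000 bp or wider with every pileup under 100.

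Most narrow regions were compact and single-peaked. The joined width ran from 218 to 987 bp with a median of 431 bp (interquartile range 360 to 580.5 bp), and the highest pileup in any library ran from 14 to 99 with a median of 40. In 273 of the 327 regions (83.5%) every library had exactly 1 peak. The distance between the outermost of the summits, a measure the rule did not use beyond limiting the width, had a median of 82 bp, and the summits lay within 50 bp of each other in 120 regions and within 100 bp in 180. For these 180 regions the spread of the summits over animals and fractions was below the fragment length, which the peak caller put at 146 to 203 bp.

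At the limits of the rule, membership turned on a few bases or tags. The widest members were chr6:92538220-92539206 (bosTau8, as all positions here) at 987 bp and chr18:45156076-45157052 at 977 bp. Just outside lay chr3:115174943-115175948 at 1006 bp and chr27:5104110-5105123 at 1014 bp, with highest pileups of 46 and 32. The members with the highest pileup, 99, were chr9:39498-40174 and chr9:65965737-65966382, whereas chr13:1099-1933 and chr25:10001031-10002001 were left out with a pileup of 101.

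One library kept many regions out. There were 408 narrow regions with low pileups in 11 of the 12 libraries, and 182 of them (44.6%) lacked a peak only in LTE_1, the low tender library with the fewest peaks. LTE_2 was the missing library in 68, HTO_1 in 50, HTE_1 in 34, HTO_2 in 32, HTE_2 in 18, LTO_2 in 12, LTO_1 in 7, MTO_1 in 4, MTO_2 in 1, and neither MTE library in any. Without LTE_1 the same rule found 510 regions, and without any other single library it found 329 to 399.

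Depth was modest, and it bears on the weakest members. After duplicate removal 3677473 to 7981292 tags were left per library, and the median pileup over the narrow regions ran from 18 in both HTO libraries to 30 in LTO_1. A pileup of 18 has an exact Poisson 95% interval of 10.7 to 28.4, one of 30 an interval of 20.2 to 42.8, and the lowest pileup of any member, 5, an interval of 1.62 to 11.7. These intervals cover counting error only. Each of the 327 regions overlapped a peak in all 6 lists that the authors called on merged replicates, as did all 2815 high-pileup and all 32 wide regions. In the merged lists 305 to 320 of the narrow regions were covered by a single peak, their median fold enrichment was 11.7 in LTE, 12.4 in HTO, 12.7 in LTO, 13.1 in HTE, 15.2 in MTE and 15.5 in MTO, and 5 to 41 of them reached a pileup of 100 there.

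The narrow regions stood on quiet surroundings. The fold enrichment of the authors' peak caller divides the pileup plus 1 by the local background plus 1, where the background is the larger of the genome-wide mean and the tag density of the 10000 bp around the peak. Turning that background into tags, the 10000 bp around a narrow region held a median of 37.8 ± 4.79 tags in the high, 59.0 ± 7.62 in the medium and 58.3 ± 7.85 in the low libraries (SD, n = 4 each), the peak's own tags included. The summit alone accounted for 50.2% ± 3.65, 45.0% ± 2.93 and 34.3% ± 1.64 of these tags (SD, n = 4). In high-pileup regions the summit accounted for 6.67% ± 0.345, 5.10% ± 0.408 and 4.36% ± 0.163 of the surrounding tags. Tags around a high-pileup region were thus spread over the window, whereas around a narrow region a large share of them lay on 1 spot.

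**Figure D1:**
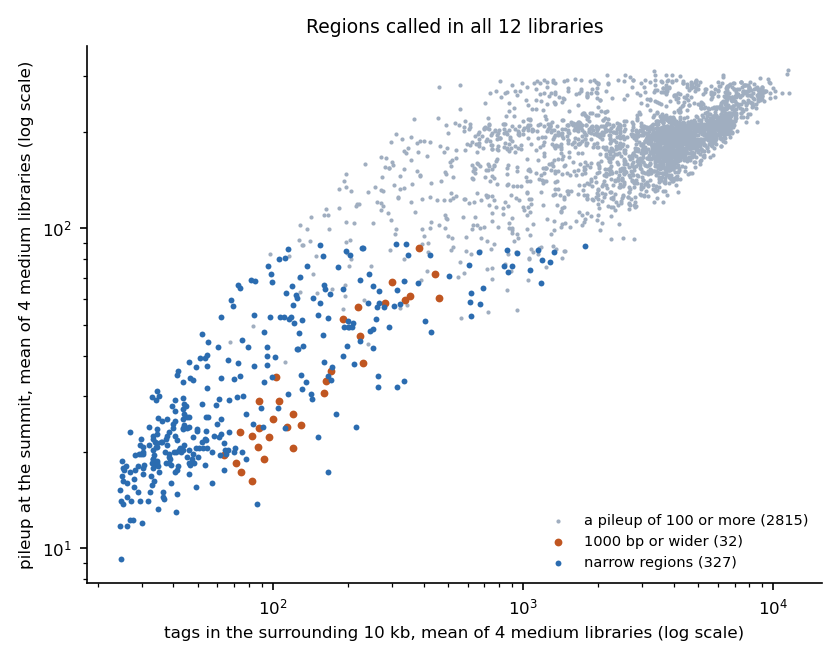
Each point is a region called in all 12 libraries, with the number of tags in the surrounding 10000 bp on the horizontal axis and the pileup at the summit on the vertical axis (both log scales, mean of the 4 medium libraries). The 327 narrow regions (blue) lie at the lower left, with few tags around them, and most of the 2815 high-pileup regions (grey) lie at the upper right. The limit of 100 on the pileup, which chose the narrow regions, sets their upper edge.

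The difference in surroundings held in every library. The local background over narrow regions was 2.35 ± 0.0723, 2.40 ± 0.159 and 2.15 ± 0.0337 times the genome-wide background (median per library, SD, n = 4), against 135 ± 10.03, 146 ± 10.3 and 102 ± 9.50 times over the other regions called in all 12 libraries. The fold enrichment ran the other way, with medians for the high, medium and low levels of 10.2, 12.9 and 10.2 over narrow regions, and of 3.38, 3.17 and 2.83 over the others. Both the background and the fold enrichment share the pileup with the rule, so regions limited to pileups under 100 were bound to differ on them to some degree, and no test is given. Nearly all of the other regions are high-pileup ones. The 32 wide regions with low pileups lay much closer to the narrow ones, with a median background of 5.02 times that of the genome against 2.28, and median fold enrichments of 9.78, 9.70 and 6.93 at the high, medium and low levels (medians over regions of the mean of 4 libraries).

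The position of the summit, the point of highest pileup in a peak, was not used by the rule beyond its limit on width. The median distance of a library's summit from the median summit of its region was 10.8 ± 0.957 bp over narrow regions and 16.5 ± 1.96 bp over the others at the high level (SD, n = 4). In the medium libraries it was 7.25 ± 1.55 against 12.2 ± 2.22 bp, and in the low ones 8.25 ± 0.866 against 36.5 ± 11.1 bp. Narrow regions had the closer summits in 4 of 4 libraries of each level (two-sided exact sign-flip test, p = 0.125, the smallest p that 4 libraries allow, adjusted p = 0.167). Their limited width caps this distance, and how far that accounts for the difference was not tested.

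High-pileup regions lay nearer to a technical ceiling than narrow regions. With at most 1 tag kept per position and strand, a pileup cannot pass 2 times the fragment length. The median narrow region reached 4.43 to 5.61% of that ceiling in the high, 8 to 9.59% in the medium and 6.45 to 9.09% in the low libraries, and the median high-pileup region 46.7% ± 3.48, 59.5% ± 4.15 and 41.6% ± 7.75 (SD, n = 4). The rule's own limit of 100 keeps the narrow regions below the ceiling, so this is a description of the chosen set.

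Narrow regions were strongest, by fold enrichment, in the medium methylated fraction. The median over the 327 regions was 10.2 and 10.8 for HTE, 9.82 and 9.83 for HTO, 12.4 and 13.2 for MTE, 13.2 and 12.8 for MTO, 8.93 and 9.87 for LTE, and 10.8 and 11.3 for LTO. All 4 medium libraries lay above all 8 others, and the high and low libraries overlapped. The means of the high, medium and low libraries were 10.2 ± 0.451, 12.9 ± 0.365 and 10.2 ± 1.04 (SD, n = 4). Medium exceeded high and low (two-sided exact permutation test, p = 0.0286 each, the smallest that 4 against 4 allow, adjusted p = 0.0571 over 12 comparisons), so neither difference passed 0.05 after adjustment, and high and low did not differ beyond the spread (exact permutation test, p = 0.8286). Fold enrichment is built from the pileup that the rule limited, so these p-values describe the chosen regions only.

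The order of the high and medium levels depended on the scale. The genome-wide background was only 0.287 to 0.507 tags, below the 1 that is added to it. Where the local background is near that level, the fold enrichment thus follows the pileup, which is not divided by depth. The high libraries were the least deep, and how far depth accounts for the order was not tested. As pileup per 1000000 tags left, the medians of the high, medium and low libraries were 4.67 ± 0.229, 4.29 ± 0.288 and 3.54 ± 0.177 (SD, n = 4). On this scale high and medium libraries overlapped, and both lay above all low libraries. As pileup over the genome-wide background, which also takes the fragment length into account, the values were 62.3 ± 1.63, 69.8 ± 1.89 and 60.2 ± 2.71, with all medium libraries above all others (a scale added after the data were seen). The limit of 100 acted on the pileup itself, so no test is given on these scales. Medium above low, with no overlap between libraries, was the one order that all 3 scales shared.

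**Figure D2:**
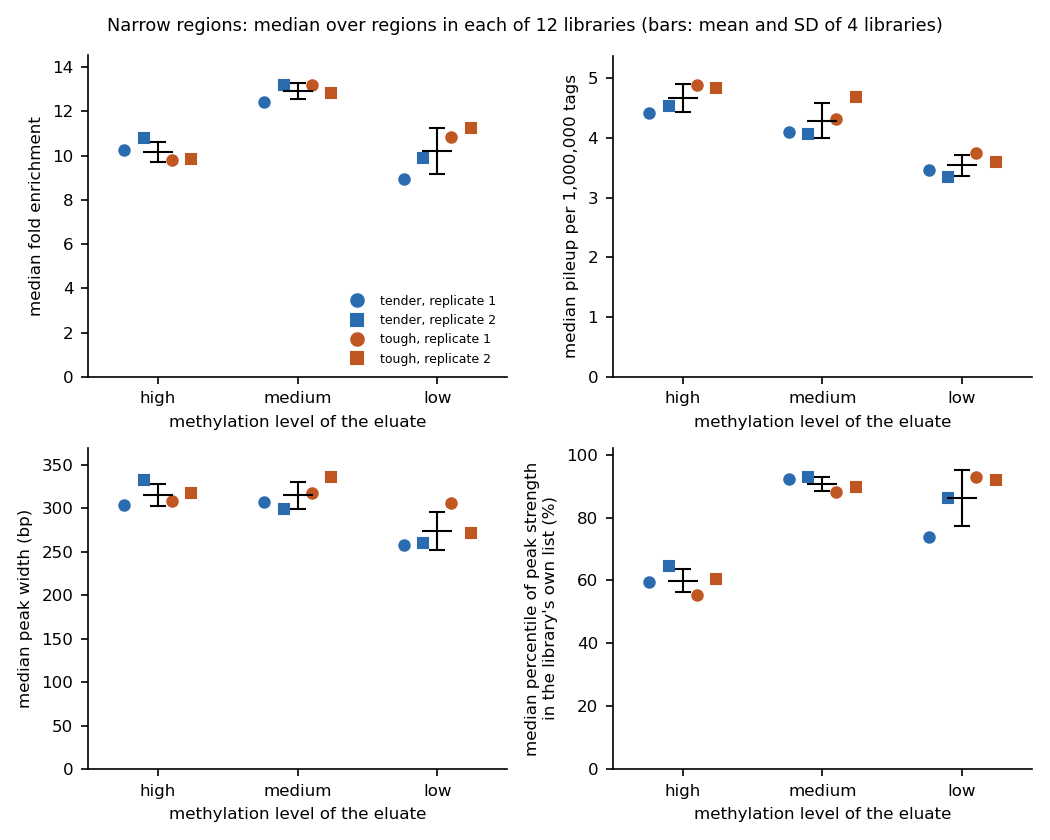
Median over the 327 narrow regions in each of the 12 libraries, by methylation level, for fold enrichment, pileup per 1000000 tags, peak width in bp and percentile of peak strength within the library's own list. Blue marks tender and orange tough beef, circles replicate 1 and squares replicate 2, and black bars the mean and SD of 4 libraries. The medium libraries are highest in fold enrichment, and the high libraries lie lowest in percentile.

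Peaks over the narrow regions were also somewhat narrower in the low fraction. Median peak width per library of the high, medium and low libraries was 315 ± 12.4, 315 ± 15.97 and 274 ± 22.2 bp (SD, n = 4). The low libraries overlapped the others only through LTO_1, at 306 bp. The limit of 1000 bp on the joined region also bounds these widths.

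Among the peaks of its own list, a narrow region ranked near the middle in the high libraries and near the top in the others. The median narrow region stood above 59.98% ± 3.72 of the peaks of a high library by −log10 p, above 90.8% ± 2.24 of those of a medium library and above 86.3% ± 8.79 of those of a low library (SD, n = 4). High differed from medium and from low (exact permutation test, p = 0.0286 each, adjusted p = 0.0571), and LTE_1, at 73.8%, was the lowest of the low libraries. Strength by −log10 p also rests on the pileup that the rule limited, so these p-values too describe the chosen regions only. The lists differ in length, and in absolute numbers 4648 to 4843 peaks were stronger than the median narrow region in a high library, 2589 to 2902 in a medium library and 2051 to 2603 in a low library. Fewer peaks thus stood above the narrow regions in the medium and low libraries, although those lists were for the most part longer.

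Single regions were then compared between levels with limma on log2 fold enrichment, fitted over all 3174 regions called in all 12 libraries, with Benjamini-Hochberg adjustment over all of them and a threshold of 0.05. Between high and medium, 5 narrow regions were higher and 164 lower at the high level, beside 24.1% of all regions higher and 13.9% lower. Between medium and low, 187 were higher and 46 lower at the medium level, beside 44.5% and 6.93% of all regions. Between high and low, 108 were higher and 117 lower at the high level, beside 58.4% and 14.1%. In shares, 50.2% of the narrow regions were lower at the high than at the medium level, and 35.8% lower at the high than at the low level, both above the share over all regions. The median log2 difference over the narrow regions was -0.29 for high minus medium, 0.34 for medium minus low and 0.06 for high minus low, and over all regions 0.07, 0.12 and 0.19.

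Scale mattered for these counts too. Per 1000000 tags, 113 narrow regions were higher and 85 lower at the high than at the medium level, 223 higher and 67 lower at the medium than at the low level, and 200 higher and 86 lower at the high than at the low level. Over all 3174 regions the counts on that scale were 2178 and 250, 2640 and 189, and 2693 and 236. That scale moved the median of all regions to 0.56, 0.71 and 1.23 for the 3 differences, and the narrow regions' medians of 0.09, 0.63 and 0.63 stayed below it. Passing on all 3 scales in the same direction were 5 narrow regions higher and 75 lower at the high than at the medium level, 174 higher and 44 lower at the medium than at the low level, and 98 higher and 75 lower at the high than at the low level. Over all 3174 regions these were 496 and 140, 1117 and 84, and 1333 and 170. As pileup over the genome-wide background the split of narrow regions was 49 higher and 140 lower, 213 and 69, and 162 and 108. Over all 3174 regions it was 1783 and 819, 2586 and 215, and 2229 and 482. With the median over all regions subtracted from each library, narrow regions gave 1 and 191, 137 and 69, and 61 and 147, and counts over all regions were not taken. On each of these settings more narrow regions were higher at the medium than at the low level, while the split between high and low turned with the setting. Over all regions, too, more were higher at the medium than at the low level on all 3 scales.

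Across libraries of one level the narrow regions kept their ranking, and across levels less so. Over the 327 regions the Pearson correlation of log2 fold enrichment was 0.835 to 0.879 between high libraries, 0.851 to 0.919 between medium libraries and 0.871 to 0.920 between low libraries. Between levels it was 0.664 to 0.814 for high and medium, 0.567 to 0.780 for medium and low, and 0.419 to 0.577 for high and low. These are descriptions over regions within pairs of libraries that differ in depth. High and low fractions thus shared the regions but least their order of strength.

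**Figure D3:**
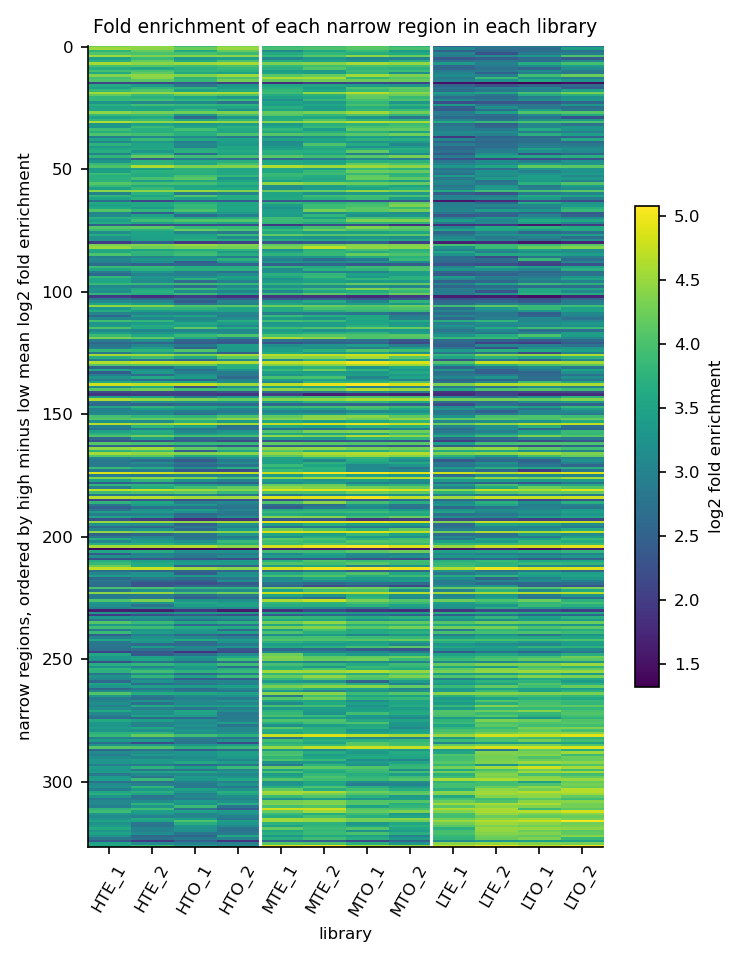
Log2 fold enrichment of each of the 327 narrow regions (rows) in each of the 12 libraries (columns, white lines between the high, medium and low levels), with rows ordered from the largest positive to the largest negative difference of high minus low. Rows at the top are bright in the high and medium libraries and dark in the low ones, and rows at the bottom are brightest in the low libraries. Replicates and both kinds of beef look alike within a level.

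Individual regions fell into kinds by the level at which they peaked. The highest mean fold enrichment was at the medium level in 202 regions, at the low level in 82 and at the high level in 43. Per 1000000 tags it was at the high level in 151, the medium level in 98 and the low level in 78. On all 3 scales the same level was highest in 196 regions, 37 of them high, 89 medium and 70 low, and the level differed between scales in 131. Regions highest at the low level were little affected by the choice of scale, with 82 and 78 on the first 2 scales and 70 on all of them.

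Regions highest at the low level were the more compact ones. Their median joined width was 359 bp (interquartile range 344 to 442 bp), against 480 bp (371 to 596 bp) in regions highest at the medium level and 517 bp (374 to 664 bp) in those highest at the high level. The outermost summits were a median of 43 bp apart, against 146 and 132 bp, and 66 of 70 (94.3%) had a single peak in every library, against 71 of 89 (79.8%) and 25 of 37 (67.6%). Their peaks had nearly the same width at every level, with medians of 275, 271 and 279 bp in the high, medium and low libraries. Regions highest at the high level instead had peaks of 362, 356 and 237 bp. The surrounding 10000 bp held a median of 44.9 tags in a medium library for regions highest at the low level, 66.5 for those highest at the high and 97.8 for those highest at the medium level. These kinds were defined from the values shown, so no test was made between them, and a stronger peak is in general also called wider.

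**Figure D4:**
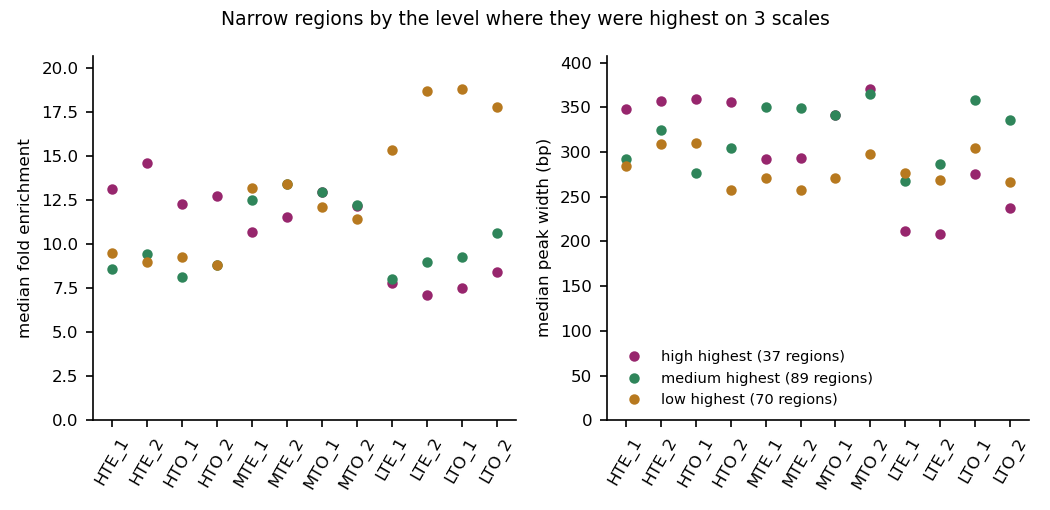
Median fold enrichment (left) and median peak width in bp (right) in each library for the 37 narrow regions highest at the high level on all 3 scales, the 89 highest at the medium level and the 70 highest at the low level. The classes were chosen on the strengths, which the left panel describes. Median widths of the regions highest at the low level stay between 257.5 and 310 bp in all 12 libraries, and those of the regions highest at the high level are smallest in the low libraries.

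The strongest narrow regions in every library were named by their lowest fold enrichment over the 12 libraries, which over all members ran from 2.503 to 25.04 with a median of 6.97. First was chr14:5088297-5088721 (425 bp), with a fold enrichment of 29.3 and 28.0 for HTE, 25.8 and 26.3 for HTO, 27.8 and 32.3 for MTE, 33.0 and 30.4 for MTO, 28.0 and 25.04 for LTE, and 27.7 and 30.1 for LTO. Its pileups were 66 to 94, just under the limit, its summits lay within 29 bp, and its level means of 27.4 ± 1.62, 30.9 ± 2.35 and 27.7 ± 2.09 (SD, n = 4) differed little beside their spread. The next were chr14:36501812-36502272 (23.0 to 32.005 over the libraries), chr9:25242499-25242910 (21.4 to 32.9), chr8:80576645-80577032 (20.97 to 33.1) and chr23:13565498-13565931 (20.9 to 31.1). All 5 were 388 to 461 bp wide with 1 peak per library and had the medium level highest by mean fold enrichment. The summits of chr14:36501812-36502272 lay within 3 bp over the 12 libraries.

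At the other end stood regions near the starts of chromosomes, among dense tags. By fold enrichment the lowest were chr14:121747-122237, at 2.503 to 5.29, and chr9:39498-40174, at 2.59 to 3.26, both named after their values were seen. The second had pileups of 43 to 99, as large as those of the strongest regions, on a local background 63.7 times that of the genome, and lay 915 bp from a high-pileup region. The first had pileups of 41 to 82 on a background 47.8 times that of the genome. A low fold enrichment here went with many tags around the peak and not with few tags in it.

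Summit agreement varied from region to region. The closest summits were those of chr28:2250347-2250712, which lay within 1 bp in all 12 libraries at fold enrichments of 11.7 to 16.8, with a high-pileup region 313 bp away. The farthest were those of chr7:19210613-19211547, 744 bp apart, and chr18:45156076-45157052, 719 bp apart, with highest pileups of 24 and 19. Both regions were weak and broad.

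Regions named for a higher fold enrichment in the low than in the high fraction included compact ones. At chr15:25331124-25331490 the fold enrichment was 11.9 and 14.4 for HTE, 10.8 and 9.06 for HTO, 30.3 and 32.7 for MTE, 24.6 and 22.5 for MTO, 27.0 and 31.5 for LTE, and 27.3 and 31.6 for LTO. All high libraries lay below all others. The log2 difference was -1.26 ± 0.0864 (SE, limma, adjusted p = 1.05e-05) for high minus medium and -1.36 ± 0.0864 (limma, adjusted p = 5.88e-07) for high minus low, and it passed on all 3 scales. Its 12 summits lay within 36 bp.

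Other regions rose towards the low fraction in different ways. At chr14:33705778-33706120 the fold enrichment was 11.4 and 8.79 for HTE, 7.77 and 7.75 for HTO, 16.9 and 16.6 for MTE, 13.1 and 9.99 for MTO, 21.02 and 21.7 for LTE, and 20.3 and 19.7 for LTO. Its high minus low log2 difference was -1.23 ± 0.0916 (limma, adjusted p = 1.21e-06), and the medium libraries lay between. At chr13:52536164-52536509 high and medium did not separate, at 9.76 to 12.1 and 9.58 to 11.4, and the low libraries stood apart at 17.2 and 20.7 in LTE and 23.0 and 21.6 in LTO (medium minus low -0.98 ± 0.0666, limma, adjusted p = 7.22e-06). The region chr10:87894092-87894681, on a background 13.2 times that of the genome, went from 4.64 ± 0.947 at the high to 10.4 ± 1.12 at the low level (SD, n = 4, medium minus low -0.91 ± 0.133, limma, adjusted p = 0.00021). The regions on chromosomes 15, 14 and 13 were 343 to 367 bp wide, with summits within 30 to 36 bp.

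The regions named for weakening most towards the low fraction were 545 to 663 bp wide. At chr4:112302970-112303632 (663 bp) the fold enrichment was 19.4 and 21.6 for HTE, 14.8 and 20.6 for HTO, 13.5 and 15.0 for MTE, 16.9 and 13.4 for MTO, 5.66 and 7.12 for LTE, and 7.46 and 6.70 for LTO. The low libraries lay below all others, with a high minus low log2 difference of 1.50 ± 0.117 (limma, adjusted p = 1.57e-06) and a medium minus low difference of 1.13 ± 0.117 (limma, adjusted p = 3.32e-05). At chr19:57841900-57842530 (631 bp) the high libraries gave 18.7 to 22.8, the medium libraries 15.8 to 17.3 and the low libraries 6.37 to 10.96 (high minus low 1.42 ± 0.144, limma, adjusted p = 8.82e-06). That region was 1 of only 3 on its chromosome. At chr14:11652267-11652811 (545 bp) the medium level, at 10.03 to 14.1, stood above the low level, at 4.68 to 5.96 (medium minus low 1.13 ± 0.113, limma, adjusted p = 2.74e-05).

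Between the high and medium fractions the most changed regions were lower at the high level. At chr6:41119656-41120246 the high libraries gave 4.64 to 6.79 and the medium libraries 11.7 to 17.0 (high minus medium -1.35 ± 0.133, limma, adjusted p = 5.37e-05), with pileups of only 5 to 8 in the high libraries. The largest differences in the other direction were smaller, 0.46 ± 0.146 at chr1:37690446-37691408 (limma, adjusted p = 0.0301) and 0.42 ± 0.0898 at chr13:79447552-79448385 (limma, adjusted p = 0.00578). Those regions were 963 and 834 bp wide, with summits 596 and 625 bp apart.

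Tender and tough beef differed at few narrow regions. By fold enrichment, 0 were higher and 6 lower in tough than in tender beef at the high level (beside 0.063% and 0.221% of all regions), 1 higher and 2 lower at the medium level (0.473% and 0.126%), and 9 higher and 2 lower at the low level (0.41% and 0.189%). An unadjusted p under 0.05 was given by limma for 63, 63 and 93 of the 327 narrow regions. Over all 3174 regions the matching counts were 270, 546 and 431. The narrow regions made up 20 of the 47 calls over all regions, and 22 of 108 when limma let the expected spread follow the mean fold enrichment. The 20 calls fell on 19 different narrow regions. On all 3 scales the counts were 0 and 4, 1 and 2, and 8 and 2, beside 2 and 5, 6 and 2, and 11 and 4 over all regions. Single libraries decided several of the calls of narrow regions. At the high level the count fell from 6 to 2 without HTE_2 and to 3 without HTO_1, MTO_1 or MTO_2. At the medium level it fell from 3 to 0 without any one of the 4 medium libraries and rose to 5 without LTE_1 or LTE_2. At the low level it fell from 11 to 3 without LTO_2, to 4 without LTO_1, to 5 without LTE_1, to 6 without MTO_1 or MTO_2 and to 7 without MTE_1 or MTE_2. Fitted on the narrow regions alone, limma called 4, 0 and 8.

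Each group of these comparisons is 2 animals, and the fit takes its error from all 6 groups. Replicate libraries come from separate animals by the methods. The p-values rest on the spread between replicates pooled over the groups, which includes counting error, and they speak for these animals only. An exact permutation test of 2 animals against 2 could not go below p = 0.33. The median residual SD was 0.19 on the log2 scale over narrow regions and 0.08 over all regions. As limma draws the spread of each region towards a value shared by all 3174, that of narrow regions was mostly drawn down. The fit on narrow regions alone, given above, used a value of their own and called fewer. Depth ran with the kind of beef, since tough libraries were the shallower ones in the high and medium fractions and the deeper ones in the low fraction, and its part in these calls was not tested. Per 1000000 tags 73 narrow regions were higher and 29 lower in tough beef in the high fraction, 84 and 27 in the medium and 41 and 21 in the low fraction, where the median of all regions was itself shifted to 0.29, 0.43 and 0.18. Over all 3174 regions the counts were 2077 and 38, 2099 and 70, and 959 and 38. As pileup over the genome-wide background the split of narrow regions was 2 higher and 14 lower, 41 and 45, and 19 and 19. Over all regions it was 25 and 17, 1686 and 145, and 437 and 37.

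The region chr24:28759859-28760328 was called at 2 levels. Its fold enrichment was 13.7 and 15.1 in HTE against 6.99 and 5.42 in HTO, 27.9 and 27.6 in MTE against 16.8 and 16.1 in MTO, and 23.97 and 23.98 in LTE against 14.8 and 17.6 in LTO. Tough libraries lay below tender ones at every level, without overlap. The log2 difference of tough minus tender was -1.22 ± 0.114 in the high fraction (limma, adjusted p = 0.00146), -0.76 ± 0.114 in the medium (limma, adjusted p = 0.0268) and -0.57 in the low fraction (limma, adjusted p = 0.0616), the last not past the threshold. Pileups were 20 and 25 in HTE against 8 and 6 in HTO, 82 and 79 in MTE against 27 and 26 in MTO, and 59 and 60 in LTE against 26 and 32 in LTO. The pileups differed by more than the fold enrichment, whose background also counts the peak's own tags.

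A region of chromosome 21 showed the largest difference at the high level. At chr21:4348537-4349316 the fold enrichment was 18.8 and 12.5 in HTE against 5.87 and 5.71 in HTO (-1.41 ± 0.159, limma, adjusted p = 0.00468). It was 10.8 and 12.2 in MTE against 7.79 and 9.58 in MTO, and 15.0 and 13.4 in LTE against 8.83 and 8.53 in LTO, in both cases lower in tough beef without overlap but not past the threshold (limma, adjusted p = 0.208 and 0.0825). Its summits spanned 499 bp and some libraries had more than 1 peak in it.

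At the low level most called regions were higher in tough beef. At chr7:27257812-27258168 the fold enrichment was 8.93 and 7.83 in LTE against 15.3 and 18.6 in LTO (1.011 ± 0.108, limma, adjusted p = 0.00269), while at the high level it was 20.9 and 21.8 in HTE and 20.7 and 23.0 in HTO. At chr6:67068693-67069099 it was 8.18 and 7.12 in LTE against 13.3 and 16.6 in LTO (0.96 ± 0.115, limma, adjusted p = 0.0052), and 17.1 and 15.7 in HTE against 15.5 and 13.3 in HTO. In LTE the pileups of these regions were 9 to 11, where counting error alone is wide. The median over all narrow regions was itself 0.13 higher in tough than in tender beef at the low level, against 0.00 over all regions. Against this direction, chr6:92538220-92539206 was lower in tough beef, at 9.07 and 9.72 in LTE against 5.81 and 5.07 in LTO (-0.79 ± 0.143, limma, adjusted p = 0.0428), and so was chr13:54019841-54020738, at 12.7 and 13.9 against 8.42 and 8.33 (-0.66 ± 0.121, limma, adjusted p = 0.0428).

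At the medium level the calls went both ways. The region chr1:36171913-36172244 gave 16.4 and 14.2 in MTE against 9.08 and 8.15 in MTO (-0.83 ± 0.118, limma, adjusted p = 0.0268), and the groups overlapped at the low level, at 15.6 and 20.1 in LTE and 18.7 and 18.3 in LTO. The region chr16:3530481-3530806 gave 10.7 and 10.5 in MTE against 14.7 and 15.0 in MTO (0.49 ± 0.0792, limma, adjusted p = 0.0371). At the high level it was the tender libraries that were higher there, at 15.8 and 16.3 in HTE and 13.8 and 13.2 in HTO, a difference that did not pass (limma, adjusted p = 0.357).

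**Figure D5:**
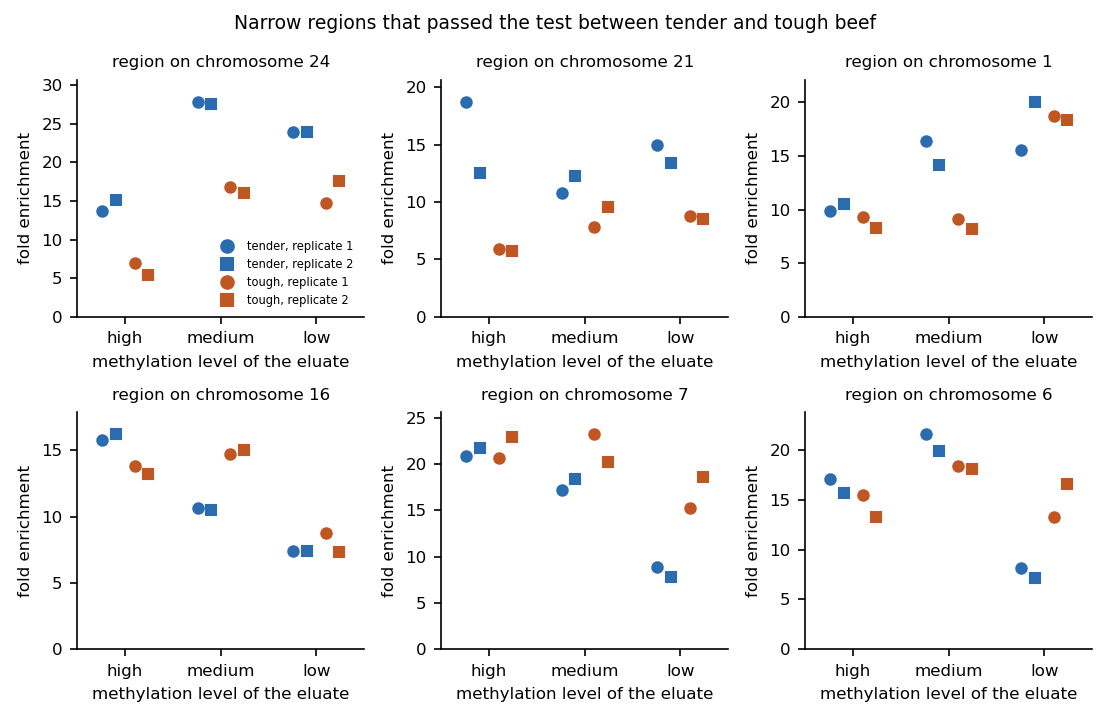
Fold enrichment in each of the 12 libraries, by methylation level, for 6 narrow regions that passed the test between tender (blue) and tough (orange) beef at some level, on chromosomes 24, 21, 1, 16, 7 and 6. Circles are replicate 1 and squares replicate 2. The region on chromosome 24 is lower in tough beef at every level, and those on chromosomes 7 and 6 passed at the low level only, where tough beef is higher.

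Narrow regions were spread unevenly over the chromosomes. The median chromosome had 9 of them, and per 1000 joined regions there were 4.39 in all. Chromosome 14 had the most on both counts, 32 regions and 12.5 per 1000. By number chromosomes 4 and 7 followed with 21 each, and by rate chromosome 21 with 20 regions and 7.97 per 1000 and chromosome 2 with 20 and 7.21. Chromosome 19 had the fewest, 3 among 3055 joined regions (0.982 per 1000), and chromosomes 25 and 27 had 4 each. Chromosome 27 held 282 high-pileup regions beside its 4 narrow ones, and chromosome 14 held 76 beside its 32.

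Narrow regions were more frequent near the starts of chromosomes than joined regions in general. Within 1 Mb of the first called base of a chromosome lay 40 narrow regions (12.2%), against 1.92% of all joined regions, 4.72% of high-pileup regions and 4 of the 32 wide regions with low pileups (12.5%). Within 1 Mb of the last called base lay 14 (4.28%), against 5.12% of all joined regions, 1.101% of high-pileup regions and 2 of the 32 wide ones (6.25%). These shares are descriptions, since neighbouring regions are not independent.

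Most narrow regions were isolated. The nearest other narrow region was a median of 1978700 bp away, and 274 of the 327 had none within 50 kb. The other 53 formed 22 groups, the largest with 5 regions over chr21:1997495-2072262, where 1 high-pileup region lay between them and the local background was 8.59 times that of the genome. A group of 4 lay within 4147 bp at chr24:272-4418, at the very start of that chromosome, on a background 25.4 times that of the genome and with a median fold enrichment of 5.74 in the medium libraries. On chromosome 14 lay 2 groups of 3, chr14:888247-923843 and chr14:983095-1003111, the second with the closest neighbours of all, chr14:983095-983571 and chr14:983801-984383, separated by 229 bp. Those neighbours differed in strength in every library, at 10.5 to 18.6 and 7.88 to 12.9. High-pileup regions lay within 50 kb of 47 narrow regions and within 10 kb of 20.

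The surroundings of the narrow regions ranged from the genome-wide background to 63.7 times that level. The local background was over 2 times that of the genome in 179 regions and over 10 times in 36, and it lay within 1.1 times the genome-wide level in all 12 libraries in 1. Regions over 2 times had a median highest pileup of 63, against 27 in the 147 between these limits, and a median fold enrichment at the medium level of 12.4 against 12.99. The background counts the peak's own tags, so this split is in part one by pileup, and the difference in pileup is no separate result. Of the 47 regions near a high-pileup region, 45 belonged to the group over 2 times. Genes, CpG islands and repeats under the narrow regions were not analysed here.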

How the data were processed

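MBD-seq of longissimus muscle gave 12 libraries, grouped by the labels into 3 methylation levels and 2 kinds of beef with 2 replicates each. Per the labels and methods, the authors mapped reads with BWA 0.7.7 to bosTau8, kept unique hits and called peaks with MACS2 (2.1.1.20160309 per library, 2.1.0.20150731 on merged replicates) without an input library, with at most 1 tag per position. The deposited lists hold a pileup (a coverage signal in tags, not divided by depth), a fold enrichment (a ratio against local background) and the −log10 of each p-value and q-value. No column of the authors' own group comparisons was used.

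Joined regions were built with Python 3.11.15, numpy 2.4.6 and pandas 2.3.3, and a library with several peaks in a region was represented by the one of highest −log10 p. Per-library medians were compared by two-sided exact permutation and sign-flip tests (scipy 1.17.1) with Benjamini-Hochberg adjustment. Log2 fold enrichment was fitted with limma 3.58.1 (R 4.3.3) over 3174 regions, with 1 mean per group and a threshold of 0.05. The study tested read counts with DESeq, which peak lists do not hold. In data simulated for tough against tender at the medium level over 3174 regions, 98 of 100 changes of 1 and 90 of 100 changes of 0.5 on the log2 scale were recovered, with 15 unchanged regions called. The changes were planted in regions drawn from all 3174, most of them high-pileup ones. Recovery among narrow regions, whose median residual SD was 0.19 against 0.08 over all regions, was not counted apart.

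The regions and tests were chosen with earlier results of these data known. Named regions are the 5 with the highest lowest-of-12 fold enrichment, up to 2 in each direction per contrast, those nearest the limits of the rule, those with the closest and farthest summits and the closest neighbours. Depth was 3677473 to 7981292 tags per library. Exact tests cannot go below p = 0.0286 with 4 libraries against 4. Whether a replicate number names one animal in every eluate is not stated. Over narrow regions, deviations of same-numbered libraries from their group means correlated at -0.0993 to 0.0166 between levels of one kind of beef. The main fits are therefore unpaired, although the fractions came from the same animals and libraries of different levels are not independent. Alternatives covered the limits of the rule, the overlap, the scale, the centring, the spread, each library left out and pairing. Sequences, genes and other annotation of bosTau8 were not analysed here.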

Additional observations from a re-analysis of the deposited data

Results flagged for a closer look

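The difference between tough and tender beef itself differed between the high and the low methylated fraction at 2 narrow regions, by an interaction term in limma. They were the only 2 that passed among all 3174 regions fitted. At chr21:27780991-27781403 tough minus tender was 1.08 lower on the log2 scale at the high than at the low level (-1.08 ± 0.142, SE, limma, adjusted p = 0.0348). The fold enrichment there was 8.32 and 8.06 in HTE against 5.44 and 5.42 in HTO, and 7.95 and 9.63 in LTE against 12.3 and 12.3 in LTO, so tough beef was lower at the high and higher at the low level, without overlap in either. At the medium level the kinds overlapped, at 14.1 and 16.7 in MTE and 15.5 and 14.1 in MTO. At chr6:67068693-67069099 the difference was -1.15 ± 0.162 (limma, adjusted p = 0.0348), with the values given above. Per 1000000 tags neither passed (limma, adjusted p = 0.0801 and 0.134), and 2 other narrow regions did. When the expected spread followed the mean fold enrichment, 4 narrow regions passed, the only 4 among all 3174. The pileups of the first region were 6 to 20 at these levels, and the part of depth, which is lower in HTO and higher in LTO than in the tender libraries, was not tested. By fold enrichment none of the 3174 regions passed for the other pairs of levels, and per 1000000 tags 1 narrow region passed for medium and low. An unadjusted p under 0.05 was given by limma on fold enrichment for 49 (high and medium), 57 (medium and low) and 86 (high and low) of the 327. Over all 3174 regions these unadjusted counts, and the counts per 1000000 tags, were not taken.

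Chromosome X, which the rule leaves out, held 36 regions that meet its other conditions, among 1839 joined regions. That is 19.6 per 1000 regions, against 4.39 on the autosomes, and 23.7% of the 152 regions of chromosome X called in all 12 libraries, against 10.3%. Their median fold enrichment in the high, medium and low libraries was 11.2 ± 0.295, 14.1 ± 0.651 and 10.85 ± 2 (SD, n = 4), against 10.2 ± 0.454, 12.9 ± 0.364 and 10.2 ± 1.04 over the narrow autosomal regions. Chromosome X regions had the higher median in all libraries except LTE_1, at 8.26 against 8.93. Steers carry 1 copy of this chromosome, and what that means for these pileups was not tested.

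No library stood apart in 18 sets of 4 libraries of a level tested with Dixon's criterion.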

How the results depend on the processing

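The number of narrow regions was 201 with pileups under 50, 1173 with pileups under 200, and 329 to 510 with each library left out. Other limits and overlaps gave 280 to 359. High minus medium fold enrichment (-2.74) ranged from -2.95 to -2.63 without single libraries and became 0.378 in pileup per 1000000 tags, a reversed order. Medium minus low (2.69) ranged from 2.26 to 3.03. High minus low (-0.0574) ranged from -0.489 to 0.286, and was 1.13 in pileup per 1000000 tags and 2.07 over the genome-wide background, both reversed. The width difference of high minus medium ranged from -5.08 to 7.58 bp, that of medium minus low from 33.9 to 51.8 bp and that of high minus low from 35.9 to 52.2 bp, the last 2 largest without LTO_1. The percentile difference of high minus low ranged from -30.4 to -24.1.

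With libraries paired by beef and number as a replicate block, differences stayed at -2.74 and 2.69 (fold enrichment), 0.750 and 1.13 (per 1000000 tags) and -30.8 and -26.3 (percentile). For fold enrichment and percentile the exact sign-flip test gave p = 0.125, as small as 4 pairs permit. In limma a block by number within each kind of beef moved the calls between levels to 174, 233 and 229. For kinds of beef another block was used, by replicate number alone. It ties tender and tough libraries of the same number, which come from different animals. That block gave 5, 0 and 12 calls at the high, medium and low levels, so only the medium count moved by more than 1.5 times. No sample correlated with its number in a way that pairs the libraries.

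Calls of narrow regions between kinds of beef were 102, 111 and 62 in pileup per 1000000 tags and 16, 86 and 38 over the genome-wide background, beside the larger counts over all regions given above. At the medium level they were 8 with centred libraries, 0 fitted on the narrow regions alone and 5 with the spread following the mean. Leaving out single libraries gave 2 to 7, 0 to 5 and 3 to 12. The cause of these shifts was not tested, apart from the scale's own construction. The total of calls between levels stayed within 1.5 times under all alternatives run, but the direction of the calls did not always hold. Between high and medium the split went from 5 higher and 164 lower to 113 and 85 per 1000000 tags. Of 311 values computed, 258 were counted as unchanged. For differences between libraries this meant that they kept their direction and their side of the threshold or stayed within their spread. For counts it meant a total within 1.5 times, whatever the direction of the calls. Pileups of 5 to 99 limit what single regions show, and values in all 12 libraries exist only for regions called in all of them.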
